A study of Mus musculus with 6 samples.

Results

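A set of 59 genes that act in mitosis and cytokinesis was followed in bone-marrow-derived macrophages (BMDMs) under excess NaCl. The genes were taken by symbol from a list of cyclins, kinases, checkpoint, kinetochore, kinesin, spindle and cytokinesis genes, and all 59 were found among the 15903 genes tested. These macrophages mature from marrow cells in a dish under the growth factor M-CSF. The marrow came from 3 Cx3cr1GFP mice on a C57BL/6J background, and the cells were kept for 7 days with 10 ng/ml M-CSF. Adherent cells of every mouse were sequenced either unstimulated (control, n = 3 libraries) or after 24 h with 62 mM added NaCl (NaCl, n = 3 libraries). All 6 libraries therefore carry the Cx3cr1 GFP allele, and none of the libraries analysed here had an osmolarity control such as mannitol. After the 7 days part of the supernatant was replaced with fresh medium. The methods do not describe this step separately for the control cultures, and its part in the results was not tested. Floating cells had been discarded before the cells were detached, and the labels give neither the age nor the sex of the mice.

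In dividing cells, cyclin B bound to Cdk1 drives entry into mitosis, kinetochores attach chromosomes to the spindle, and the spindle assembly checkpoint holds back the anaphase promoting complex until every chromosome is attached. This complex then marks cyclin B and securin for degradation, separase opens the cohesin rings, and the cell is cleaved at the midzone of the spindle. Transcripts of these genes accumulate together towards mitosis under the MuvB complex, B-Myb and FoxM1, and the classic elements of their promoters are the cell cycle genes homology region (CHR) and the CCAAT box bound by NF-Y. M-CSF is a mitogen for macrophages, so cultures of BMDMs hold some dividing cells.

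The promoters of 5 of the genes are shown because they carry 1 or both of these elements close upstream of the start of the gene. That of Ccnb1 holds CCAAT boxes and neither CHR form marked below. The 5 promoters were picked after the data were seen. Each run gives the 120 bases just upstream of the start in RefSeq (GRCm38.p6), read 5′ to 3′ along the strand of the gene. Capitals mark the CHR (TTTGAA or TTCGAA, on either strand, with the second form reading the same on both) and the CCAAT box (CCAAT, on either strand). Other forms of the CHR were not searched for, so a promoter counted as without a CHR may hold one of those.
Cdk1 (chr10:69352913-69353032, minus strand): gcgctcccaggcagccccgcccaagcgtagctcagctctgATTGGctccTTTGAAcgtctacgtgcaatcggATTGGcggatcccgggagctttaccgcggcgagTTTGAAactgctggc
Top2a (chr11:99024190-99024309, minus strand): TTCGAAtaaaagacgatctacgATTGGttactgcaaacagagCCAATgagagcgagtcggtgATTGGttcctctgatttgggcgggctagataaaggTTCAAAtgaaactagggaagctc
Ccnb1 (chr13:100786487-100786606, minus strand): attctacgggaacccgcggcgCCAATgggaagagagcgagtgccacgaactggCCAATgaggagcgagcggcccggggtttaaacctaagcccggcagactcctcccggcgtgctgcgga
Cdc20 (chr4:118437344-118437463, minus strand): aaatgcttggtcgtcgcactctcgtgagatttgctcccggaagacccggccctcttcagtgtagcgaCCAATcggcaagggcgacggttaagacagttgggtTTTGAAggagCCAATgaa
Espl1 (chr15:102296173-102296292, plus strand): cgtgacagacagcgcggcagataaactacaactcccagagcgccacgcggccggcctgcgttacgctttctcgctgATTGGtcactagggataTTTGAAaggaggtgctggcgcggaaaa

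A promoter was at hand for 49 of the 59 genes. In the 250 bases upstream of the start, 19 of the 49 (38.8%) held a CHR in a form searched for, against 14.8% of 10088 protein-coding genes tested and 19.6% of all 27025 genes with a promoter in the table. The CCAAT box was held by 35 of the 49 (71.4%), against 40.8% and 37.5%. Both elements stood in 15 of the 49 (30.6%), against 5.87% and 7.001%. Of 28 CHR matches, 14 began within 50 bases of the start, as the plot of motif positions shows. A letter match is a description of the sequence and not a site shown to be used in these cells. The 19 genes with a CHR had a median log2 fold change under NaCl of 0.65 and the 30 without had 0.59, with overlapping ranges of 0.35 to 0.97 and 0.12 to 1.04. The 35 with a CCAAT box had a median of 0.66 and the 14 without had 0.53, with overlapping ranges of 0.25 to 1.04 and 0.12 to 0.89. Neither difference was tested.

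**Figure D1:**
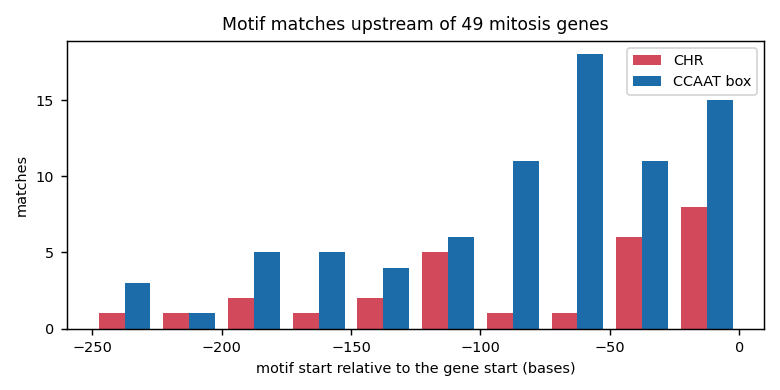
Number of motif matches (y axis) by distance of the motif's start from the gene start in bases (x axis, bins of 25 bases) upstream of 49 mitosis and cytokinesis genes, with 4 genes that have 2 annotated starts counted at each. The red bars (CHR, 28 matches) are highest next to the start, and 55 of the 79 CCAAT box matches (blue) lie within 100 bases of it.

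Reads counted on genes numbered from 4088065 (NaCl replicate 3) to 20123570 (control replicate 3) per library. The 59 genes together took 0.344%, 0.284% and 0.306% of the counts of control replicates 1, 2 and 3, and 0.482%, 0.426% and 0.555% of those of NaCl replicates 1, 2 and 3. The lowest single count of any of them was 37, for Fam83d in NaCl replicate 3, and the median count ranged from 282 to 814 per library. NaCl replicate 3, the shallowest library, held the highest CPM of the 6 libraries for 43 of the 59 genes. CPM values are counts relative to a library size scaled by TMM, and replicate numbers are mouse numbers.

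The mitosis and cytokinesis genes were expressed more in NaCl than in control BMDMs. Their log2 fold changes were positive for 59 of the 59 genes, with a median of 0.62 (a 1.54-fold higher level) and a range from 0.12 for Pttg1 to 1.04 for Kif18b, whereas the median of all 15903 genes tested was -0.01. In edgeR's quasi-likelihood test, adjusted over all genes with a threshold of 0.05, 14 of the 59 were higher, where 0.478% of all genes were. These were Ccnb1, Foxm1, Plk1, Nek2, Aurkb, Cdca8, Bub1b, Espl1, Nuf2, Kif18b, Kif2c, Prc1, Spag5 and Racgap1, and they made up 18.4% of the 76 genes that were higher in that test. When the mouse entered as a replicate block, 48 of the 59 were higher, against 4.6% of all genes (4.3% were lower), and in DESeq2 without the block 33 were, against 1.54%. DESeq2 with the block gave 41 of the 59, against 452 higher and 354 lower of the 15903 genes tested. Counts by role refer to edgeR unless DESeq2 is named. No member (0 of 59) was lower past the threshold in any of these 4 tests, and 0 had an unadjusted p under 0.05 with a lower level in edgeR, while 52 had it with a higher level (6.63% of all genes). The 14 genes passed in all 4 tests.

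The direction was shared by the mice. Within a mouse, 58 of the 59 genes were higher in the NaCl library than in the control library in 3 of 3 mice, where 20.1% of all genes were, and the exception was Pttg1, which was lower in mouse 2. For 49 of the 59 every NaCl library lay above every control library, against 8.92% of all genes tested, and for 0 of the 59 every NaCl library lay below every control library, against 10.1%. The 10 whose groups overlapped were Ube2c, Pttg1, Cenpa, Cenpe, Cenpf, Ska1, Kif20b, Ckap2l, Fam83d and Cep55. The median log2 ratio over the 59 genes was 0.48, 0.62 and 0.77 in mice 1, 2 and 3. The summed level of the 59 genes was 3328, 2912 and 3104 CPM in control mice 1, 2 and 3 and 4651, 4488 and 5437 CPM after NaCl, so the lowest NaCl library lay above the highest control library. In a bulk sample, a larger share of dividing cells and more transcript per dividing cell cannot be told apart. The number past the threshold in edgeR without the block changed when a library was left out, as it did over all genes. It was 0 of 59 without control replicate 2, control replicate 3, NaCl replicate 2 or NaCl replicate 3 (42, 44, 55 and 40 at an unadjusted p under 0.05 in edgeR). Over all genes 8, 9, 22 and 9 were higher and 1, 1, 0 and 0 lower in these fits, against 76 and 28 with all 6 libraries. Without control replicate 1 it was 3 of the 59 (46 higher over all genes), and without NaCl replicate 1 it was 16 (123 higher over all genes). With the block it was 41, 55 and 36 of the 59 without mouse 1, 2 or 3, and 469, 758 and 715 higher over all genes.

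**Figure D2:**
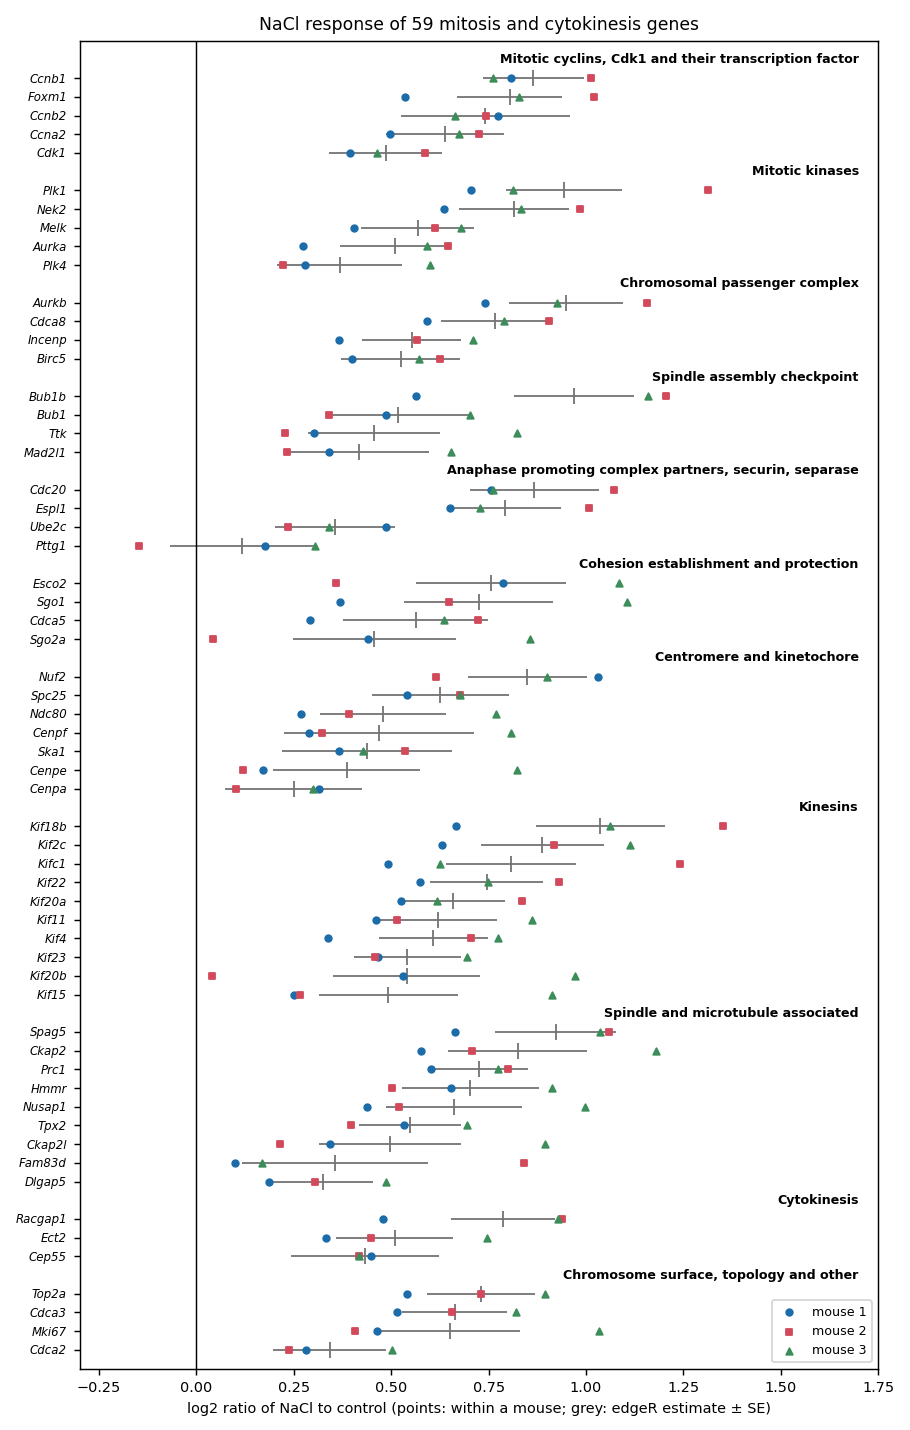
Log2 ratio of NaCl to control (x axis) for each of the 59 genes (rows, grouped by role), with a point for each mouse (circle, square and triangle for mice 1, 2 and 3) and the edgeR estimate without the block ± its standard error in grey. All points but that of Pttg1 in mouse 2 lie right of 0, and the grey estimates run from 0.12 for Pttg1 to 1.04 for Kif18b.

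The mitotic cyclins, Cdk1 and FoxM1 showed a median log2 change of 0.74, with 2 of 5 past the threshold in edgeR without the block and 5 of 5 with it (3 and 5 in DESeq2). Ccnb1, the cyclin that activates Cdk1 for mitotic entry, stood at 30.2, 29.6 and 32.4 CPM in control mice 1, 2 and 3 and at 53.1, 59.9 and 55.1 CPM in their NaCl cultures. Every NaCl library lay above every control library. The log2 fold change of Ccnb1 was 0.86 (SE 0.13, adjusted p = 0.0276 in edgeR's quasi-likelihood test), and 18.9% of the 75-base windows of its transcripts also occur in the pseudogene Ccnb1-ps. Foxm1, the transcription factor of late cell cycle genes, read 52.4, 47.8 and 48.6 CPM in the control libraries and 75.99, 97.2 and 86.5 CPM after salt, with mouse 2 the highest under salt. Its log2 fold change was 0.80 (SE 0.14, adjusted p = 0.0384 in edgeR's quasi-likelihood test). Ccna2, the cyclin of S and G2 phase, was at 74.9, 80.7 and 90.9 CPM in the control libraries and 106, 134 and 145 CPM after salt, with groups that did not overlap and a log2 fold change of 0.64 (SE 0.15, adjusted p = 0.114 without and 0.00066 with the replicate block in edgeR). Cdk1, the catalytic partner of these cyclins, gave 77.2, 87.4 and 93.1 CPM in the control libraries and 102, 131 and 128 CPM after salt. Its groups did not overlap either, yet mouse 1 was lowest in both, and the log2 fold change was 0.49 (SE 0.14, adjusted p = 0.199 without and 0.00775 with the replicate block in edgeR). Ccna2 shares 12.5% of its exonic bases with Exosc9 on the opposite strand. Ccnb2, another B-type cyclin, had a log2 fold change of 0.74 and ratios of 0.77, 0.74 and 0.66 in mice 1, 2 and 3.

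**Figure D3:**
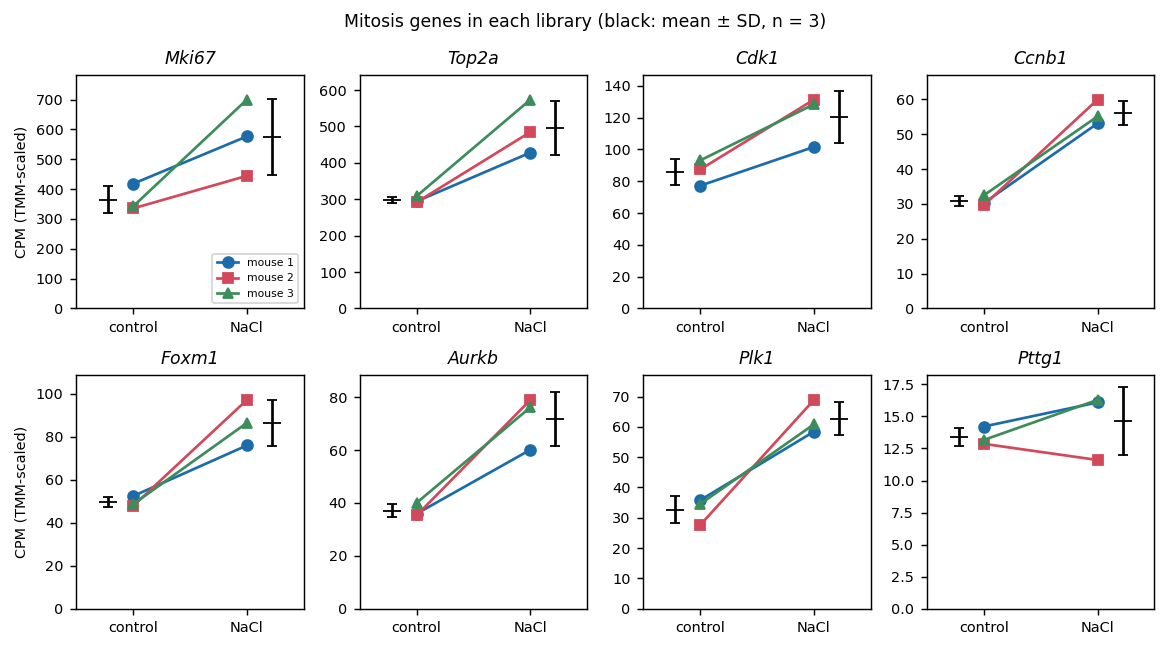
CPM (y axis, from 0) of 8 genes in control and NaCl libraries, with a line joining the libraries of each mouse and the mean ± SD of 3 libraries in black. Every line runs upward except that of Pttg1 in mouse 2, and the control libraries of Ccnb1 lie between 29.6 and 32.4 CPM below NaCl libraries between 53.1 and 59.9 CPM.

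Of the mitotic kinases, Plk1 and Nek2 were past the threshold in edgeR without the block and Aurka and Melk with it, while Plk4 was not in either edgeR test. In DESeq2, 3 of the 5 passed without the block, Melk among them (adjusted p = 0.0419), and 4 with it. Plk1, which acts at centrosomes, kinetochores and the midzone, had 35.8, 27.6 and 34.6 CPM in the control libraries and 58.4, 68.9 and 60.8 CPM after salt. Its levels in the NaCl libraries were all above those of control, and the log2 fold change was 0.94 (SE 0.15, adjusted p = 0.0340 in edgeR's quasi-likelihood test). Nek2, a kinase of centrosome separation, had 31.2, 24.8 and 29.2 CPM in the control libraries and 48.5, 49.3 and 52.2 CPM after salt, a log2 fold change of 0.82 (SE 0.14, adjusted p = 0.0417 in edgeR's quasi-likelihood test). Aurka, the kinase of spindle poles, had 31.1 ± 1.23 CPM unstimulated and 44.4 ± 5.001 CPM in NaCl (mean ± SD, n = 3), with a log2 fold change of 0.51 (SE 0.14, adjusted p = 0.165 without and 0.0117 with the replicate block in edgeR). Plk4, the kinase of centriole duplication, was at 24.4 ± 1.51 CPM unstimulated and 31.8 ± 5.37 CPM in NaCl (log2 fold change 0.37, adjusted p = 0.0981 with the block in edgeR).

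The chromosomal passenger complex, which corrects wrong attachments and later directs cytokinesis, consists of the kinase Aurora B, its scaffold INCENP, survivin and borealin. Their genes Aurkb, Incenp, Birc5 and Cdca8 showed a median log2 change of 0.66, with 2 of 4 past the threshold in edgeR without the block and 4 of 4 with it (3 and 4 in DESeq2). Aurkb had 35.9, 35.3 and 40.1 CPM in control mice 1, 2 and 3 and 60.1, 78.95 and 76.2 CPM after salt, and the lowest NaCl library, that of mouse 1, was above every control. Its log2 fold change of 0.95 (SE 0.15, adjusted p = 0.0318 in edgeR's quasi-likelihood test) was the third highest of the 59. Cdca8, the gene of borealin, had 43.7, 42.2 and 47.6 CPM in the control libraries and 65.9, 79.1 and 82.4 CPM after salt (log2 fold change 0.77, adjusted p = 0.0461 in edgeR's test). Incenp was the most abundant of the 4, with 143, 138 and 140.4 CPM in the control libraries and 184, 204 and 230.0 CPM after salt. The groups of Incenp did not overlap, and its log2 fold change was 0.55 (SE 0.13, adjusted p = 0.103 without and 0.00293 with the replicate block in edgeR).

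Among the checkpoint genes, Bub1b had the highest estimate, and its difference from Bub1, Mad2l1 and Ttk was not tested. Bub1b encodes BubR1, which holds Cdc20 in the inhibitory checkpoint complex, and its level was 74.7, 54.4 and 59.98 CPM in the control libraries and 110.4, 125 and 134 CPM after salt. The ratios within mice 1, 2 and 3 were 0.56, 1.20 and 1.16, and the log2 fold change was 0.97 (SE 0.15, adjusted p = 0.0340 in edgeR's quasi-likelihood test). Bub1, Mad2l1 and Ttk had log2 fold changes of 0.52, 0.42 and 0.46. With the block Bub1 and Mad2l1 were past the threshold (adjusted p = 0.00743 and 0.0366 in edgeR) and Ttk was not (adjusted p = 0.0625). In DESeq2 with the block Mad2l1 did not pass either (adjusted p = 0.0911).

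The partners and targets of the anaphase promoting complex gave the widest spread of any role. Espl1, the gene of separase, had 36.4, 33.3 and 41.9 CPM in the control libraries and 57.2, 67.2 and 69.5 CPM after salt, a log2 fold change of 0.79 (SE 0.14, adjusted p = 0.0473 in edgeR's quasi-likelihood test). Cdc20, the activator of the complex, went from 32.8 ± 5.83 to 59.5 ± 7.51 CPM (n = 3), a log2 fold change of 0.87 (SE 0.17, adjusted p = 0.0525 without and 3.8e-05 with the replicate block in edgeR). Pttg1, the gene of securin, which inhibits separase, had 14.2, 12.9 and 13.2 CPM in the control libraries and 16.1, 11.6 and 16.3 CPM after salt. Its groups overlapped, with the NaCl library of mouse 2 below all control libraries, and the log2 fold change was 0.12 (SE 0.18, adjusted p = 0.847 without and 0.774 with the replicate block in edgeR). Ube2c, the ubiquitin-conjugating enzyme of the complex, also had overlapping groups (log2 fold change 0.35, adjusted p = 0.0685 with the block in edgeR), and 22.8% of its exonic bases lie in Tnnc2 on the opposite strand.

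Genes of sister chromatid cohesion showed a median log2 change of 0.64 and in edgeR 0 of 4 passed without the block and 3 of 4 with it. DESeq2 gave 2 of 4 both without and with the block, Esco2 and Sgo1. Cdca5, the gene of sororin, which keeps cohesin on chromatin, was at 17.96, 19.5 and 21.4 CPM in the control libraries and 22.02, 32.3 and 33.3 CPM after salt, and the lowest NaCl library, that of mouse 1, was close to the highest control library, that of mouse 3. Its log2 fold change was 0.56 (SE 0.19, adjusted p = 0.251 without and 0.0113 with the replicate block in edgeR). Esco2, the acetyltransferase that locks cohesin, and Sgo1, its protector at centromeres, had log2 fold changes of 0.76 and 0.72, with adjusted p = 0.00213 and 0.00413 with the block in edgeR. Sgo2a shares 35.04% of its exonic bases with Kctd18 on the opposite strand, and its adjusted p with the block in edgeR was 0.145.

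The centromere and kinetochore genes had the lowest median of the 11 roles, 0.47, and all 7 were higher in 3 of 3 mice. Nuf2, a subunit of the Ndc80 complex that grips microtubules, had 26.3, 29.3 and 31.7 CPM in the control libraries and 53.9, 45.1 and 59.4 CPM after salt. Its log2 fold change of 0.85 (SE 0.15, adjusted p = 0.0461 in edgeR's quasi-likelihood test) exceeded those of its complex partners Ndc80 and Spc25, which were 0.48 and 0.63, a difference that was not tested. Cenpa, the histone that marks centromeres, was at 95.1, 76.7 and 70.5 CPM in the control libraries and 118, 82.3 and 86.7 CPM after salt. The control library of mouse 1 was above the NaCl libraries of mice 2 and 3, and the log2 fold change of Cenpa was 0.25 (SE 0.18, adjusted p = 0.613 without and 0.237 with the replicate block in edgeR). Cenpe, the kinesin motor of kinetochores, had 94.6, 73.6 and 73.1 CPM in the control libraries and 106, 79.95 and 129.6 CPM after salt, and the NaCl library of mouse 2 lay within the control range. The log2 fold change of Cenpe was 0.39 (SE 0.19, adjusted p = 0.436 without and 0.0813 with the replicate block in edgeR). Cenpf and Ska1, with 0.47 and 0.44 on the same scale, also had overlapping groups.

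In edgeR all 10 genes of the kinesin role were higher in NaCl past the threshold with the block and 2 of them without it. Cenpe, a kinesin counted with the kinetochore genes above, did not pass (adjusted p = 0.0813 with the block in edgeR). In DESeq2 8 of the 10 passed both with and without the block, and Kif15 and Kif20b did not (adjusted p = 0.0714 and 0.0639 with the block). Kif18b, which shortens astral microtubules, had 20.6, 17.1 and 20.4 CPM in the control libraries and 32.7, 43.96 and 42.9 CPM after salt. Its log2 fold change of 1.04 (SE 0.17, adjusted p = 0.0367 in edgeR's quasi-likelihood test) was the highest of the 59. Kif2c, a microtubule depolymerase of centromeres, had 37.5, 28.8 and 32.8 CPM in the control libraries and 58.2, 54.6 and 71.1 CPM after salt, a log2 fold change of 0.89 (SE 0.16, adjusted p = 0.0455 in edgeR's quasi-likelihood test). Kif11, the motor that pushes spindle poles apart, had the highest mean CPM of the 10, not corrected for length. It had 87.9, 73.2 and 80.4 CPM in the control libraries and 121, 105 and 146 CPM after salt. Its groups did not overlap, and the log2 fold change was 0.62 (SE 0.15, adjusted p = 0.124 without and 0.00130 with the replicate block in edgeR). The other 7 had log2 fold changes from 0.49 for Kif15 to 0.81 for Kifc1, and 26.1% of the windows of Kifc1 also occur in its copy Kifc5b. Kif20a and Kif4 share 29.3% and 15.1% of their exonic bases with Cdc23 and Pdzd11 on the opposite strand.

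Of the 9 genes of spindle and microtubule proteins, 2 passed in edgeR without the block and 7 with it (6 and 6 in DESeq2). Prc1, which bundles the antiparallel microtubules of the midzone, had 61.97, 54.2 and 61.99 CPM in the control libraries and 94.2, 94.5 and 106 CPM after salt, a log2 fold change of 0.72 (SE 0.13, adjusted p = 0.0434 in edgeR's quasi-likelihood test). Spag5, which encodes astrin of spindle poles and kinetochores, had 46.4, 38.9 and 48.3 CPM in the control libraries and 73.6, 81.1 and 99.2 CPM after salt, a log2 fold change of 0.92 (SE 0.15, adjusted p = 0.0384 in edgeR's quasi-likelihood test). For both genes the lowest NaCl library lay above the highest control library. Tpx2, the activator of Aurora A and the most abundant of the 9, had 89.3, 82.8 and 84.5 CPM in the control libraries and 129, 109 and 137 CPM after salt, a log2 fold change of 0.55 (SE 0.13, adjusted p = 0.115 without and 0.00326 with the replicate block in edgeR). Dlgap5, which stabilises kinetochore fibres, had 48.2, 42.8 and 41.2 CPM in the control libraries and 54.9, 52.9 and 57.7 CPM after salt. The groups of Dlgap5 did not overlap, yet its log2 fold change of 0.32 (SE 0.13, adjusted p = 0.342 without and 0.102 with the replicate block in edgeR) was among the 3 lowest of the 59. Fam83d was the other of the 9 that did not pass with the block (adjusted p = 0.259 in edgeR). Hmmr, Nusap1, Ckap2 and Ckap2l, which bind spindle microtubules, had log2 fold changes of 0.70, 0.66, 0.82 and 0.50. Prc1 shares 11.1% of its exonic bases with Rccd1 on the opposite strand.

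The 3 cytokinesis genes were all past the threshold in edgeR with the block, and 2 of the 3 were in DESeq2 with the block. Racgap1, a subunit of centralspindlin with Kif23, had 95.97, 86.2 and 83.8 CPM in the control libraries and 134, 166 and 159.8 CPM after salt, a log2 fold change of 0.79 (SE 0.13, adjusted p = 0.0402 in edgeR's quasi-likelihood test). Its partner Kif23 had a log2 fold change of 0.54, and Ect2, the RhoA activator that centralspindlin recruits, one of 0.51. Cep55, which brings in the abscission machinery, had ratios of 0.45, 0.42 and 0.42 in mice 1, 2 and 3, and an adjusted p with the block of 0.0470 in edgeR and 0.157 in DESeq2.

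Mki67, the gene of the proliferation marker Ki-67 that coats mitotic chromosomes, and Top2a, the topoisomerase that untangles them, were the most abundant of the 59. Per kilobase of exon they were at 36.3 and 33.1 CPM in control and 57.02 and 54.98 CPM in NaCl, ahead of Ccnb2 and Incenp, while Sgo2a was lowest at 1.23 and 1.72 CPM per kilobase. Top2a had 294, 292 and 309 CPM in the control libraries and 428, 485 and 574 CPM after salt. The groups did not overlap, and the log2 fold change was 0.73 (SE 0.14, adjusted p = 0.0517 without and 0.00017 with the replicate block in edgeR). Mki67 had 418, 335 and 342 CPM in the control libraries and 577, 444 and 700.0 CPM after salt, with mouse 3 the highest and mouse 2 the lowest of the NaCl libraries, which all lay above control. The log2 fold change of Mki67 was 0.65 (SE 0.18, adjusted p = 0.162 without and 0.00160 with the replicate block in edgeR). Cdca3 and Cdca2, also of this role, had log2 fold changes of 0.66 and 0.34, the latter not past the threshold with the block (adjusted p = 0.109 in edgeR). Across the 59 genes the median SD was 9.94% of the mean in control and 14.8% in NaCl.

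The other mitosis genes, a list of 45 that are not among the 59, had a median log2 fold change of 0.53, and 42 were higher in 3 of 3 mice (20.1% of all genes). In edgeR's test 1 of the 45 was higher without the block (0.478% of all genes) and 31 with it (4.6%). In the same tests 0 were lower (0.176% and 4.3% of all genes), and DESeq2 without the block gave 15 higher (1.54%). The 4 with the lowest p were Cdc25b, the phosphatase that activates Cdk1, Cit, a kinase of the midbody, Shcbp1 and Ccnf. Cdc25b had 49.7, 43.2 and 44.6 CPM in the control libraries and 79.9, 80.6 and 67.6 CPM after salt, a log2 fold change of 0.73 (SE 0.13, adjusted p = 0.0472 in edgeR's quasi-likelihood test). The condensins, which compact mitotic chromosomes, had a median of 0.53, and Ncapd2, Ncaph, Ncapg2, Ncapd3 and Ncapg passed with the block while Smc2, Smc4 and Ncaph2 did not (adjusted p = 0.0815, 0.184 and 0.130 in edgeR). Ncapd2 had 129, 107 and 117 CPM in the control libraries and 187, 221 and 194 CPM after salt, a log2 fold change of 0.77 (SE 0.13, adjusted p = 0.0414 in edgeR's quasi-likelihood test). Of 19 genes of the inner centromere network 5 passed in edgeR with the block, among them Cenpn (log2 fold change 0.58), with a list median of 0.45. None (0) of the 19 passed in edgeR without the block or in DESeq2 with or without it.

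The cohesin, anaphase promoting complex and MuvB and DREAM lists had lower medians than the lists above, a difference that was not tested. Over all genes 4.6% were higher in edgeR with the block. The 10 cohesin genes had a median log2 fold change of 0.16, and 0 passed in edgeR with or without the block or in DESeq2, with 1 at an unadjusted p under 0.05. The 16 genes of anaphase promoting complex subunits and partners had a median of 0.10, and 2 passed in edgeR with the block, Fzr1 (log2 fold change 0.61, adjusted p = 0.00337) and Anapc5 (0.46, adjusted p = 0.0162, both in edgeR). The MuvB and DREAM regulators, 11 genes that include parts of the MuvB complex and B-Myb, had a median of 0.29. Of these, 3 passed in edgeR with the block: Rbl1, Mybl2 and Tfdp1. In DESeq2 with the block 1 of the 11 passed, and without the block 0 passed in edgeR or DESeq2. Binding of these regulators to the promoters shown above was not measured. Mybl2, the gene of B-Myb, had 11.4, 19.7 and 21.1 CPM in the control libraries and 13.5, 43.8 and 25.6 CPM after salt. The NaCl library of mouse 1 lay below the control libraries of mice 2 and 3, and the log2 fold change of Mybl2 was 0.66 (SE 0.38, adjusted p = 0.516 without and 0.0199 with the replicate block in edgeR).

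The replication genes, the nearest neighbours in the cell cycle, showed the same sign with a different layout over the mice. Of 41, 40 had a positive log2 fold change, with a median of 0.41, and 31 were higher in 3 of 3 mice (20.1% of all genes). None (0) passed in edgeR or DESeq2 without the block, where 0.478% and 1.54% of all genes were higher. In edgeR 9 had an unadjusted p under 0.05 with a higher level (6.63% of all genes), and 20 passed with the block (4.6%). Their summed level was 2058, 2988 and 3038 CPM in control mice 1, 2 and 3 and 2333, 4561 and 3976 CPM in NaCl. The NaCl library of mouse 1 thus lay below the control libraries of mice 2 and 3. Every NaCl library exceeded every control library for 1 of the 41, against 49 of the 59 mitosis and cytokinesis genes and 8.92% of all genes. The median ratios of the 41 within mice 1, 2 and 3 were 0.26, 0.60 and 0.49.

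**Figure D4:**
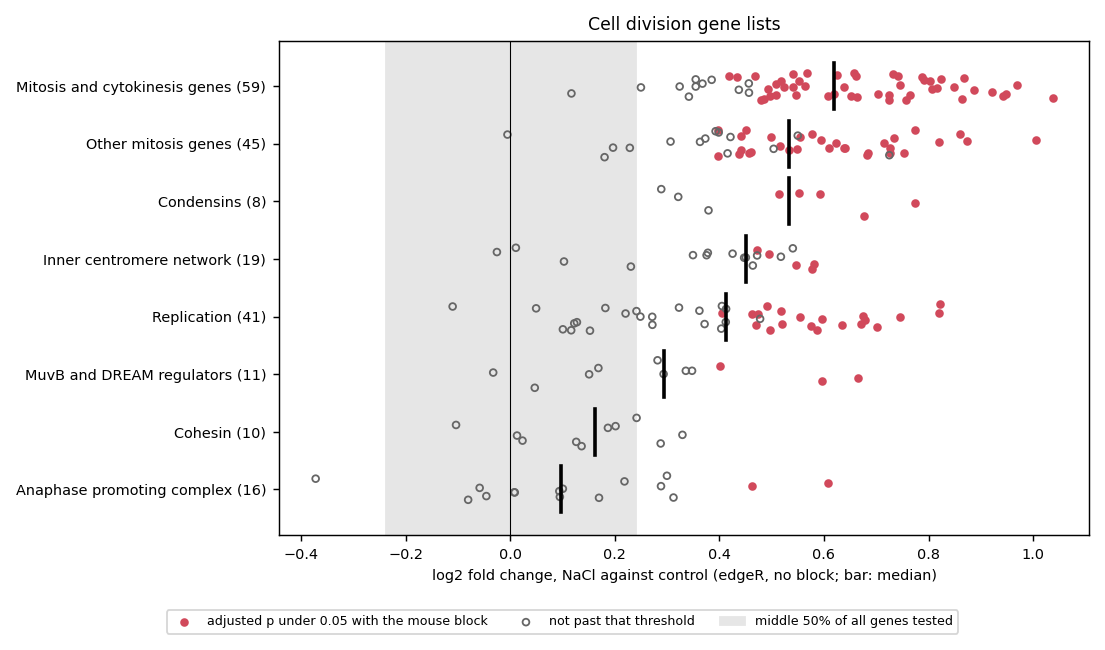
Log2 fold change of NaCl against control from edgeR without the block (x axis) for each gene (points) of 8 lists (rows, with the number of genes), with the median of each list as a black bar and the middle 50% of all genes tested in grey. Filled red points passed the threshold of 0.05 with the mouse as a replicate block, as 48 of the 59 mitosis and cytokinesis genes did, and the medians fall from 0.62 for these to 0.10 for the anaphase promoting complex.

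The ratios of mice 2 and 3 were ordered differently from gene to gene. Of the 59 genes, 30 had their highest ratio in mouse 3, 24 in mouse 2 and 5 in mouse 1. Kif20b, a motor of late cytokinesis, had ratios of 0.53, 0.04 and 0.97 in mice 1, 2 and 3, and Sgo2a had 0.44, 0.04 and 0.86. The reverse was seen for Kifc1, with 0.49, 1.24 and 0.63, and Plk1, with 0.70, 1.31 and 0.81. The difference between mouse 3 and mouse 2 went with the GC content of the transcripts, which ranged from 36.7% for Esco2 to 57.0% for Kifc1: Pearson's r was -0.70 and Spearman's rho -0.73 over the 59 genes. Over 11977 genes with a mean of at least 10 counts the same coefficients were -0.46 and -0.52. Genes are not independent replicates and the points share 4 libraries of unequal depth, so these coefficients carry no p-value, and the part of base composition in the difference was not tested. Counts were also corrected for GC content and length, a step chosen once the data had been seen, over the 15484 genes with a known GC content. Without the block 26 of the 59 genes then passed, against 119 higher and 66 lower of the 15484. With the block 54 passed, against 7.5% of the 15484 higher and 6.21% lower, and 0 of the 59 were lower. The median log2 fold change of the 59 was 0.64 in both fits.

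**Figure D5:**
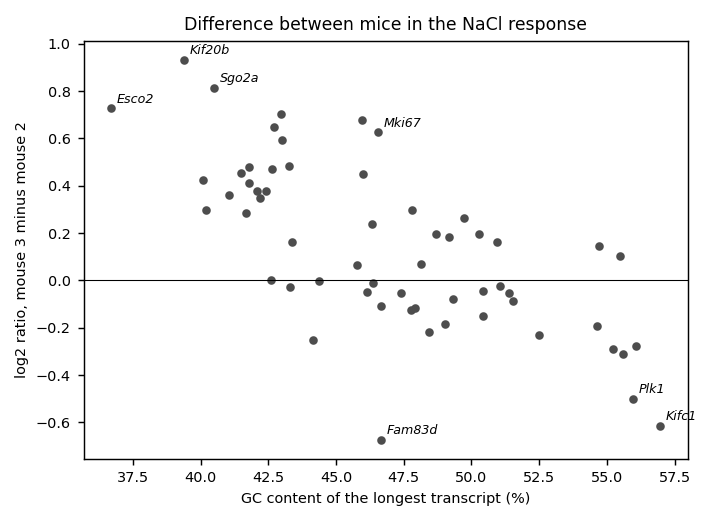
Difference of the log2 ratio of NaCl to control between mouse 3 and mouse 2 (y axis) against the GC content of the longest annotated transcript in percent (x axis), with a point for each of the 59 genes. Points fall from Kif20b (0.93) and Sgo2a (0.81) at low GC content to Plk1 (-0.50) and Kifc1 (-0.61) at high GC content, with Fam83d (-0.67) apart.

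Markers of the cells that the cultures could hold were read in the same libraries. The 7 macrophage markers were all expressed, with Adgre1 (F4/80) at 1614 ± 215 CPM unstimulated and 1406 ± 206 CPM in NaCl, and Csf1r, the M-CSF receptor, at 2083 ± 148 and 3443 ± 369 CPM (n = 3 each), higher with the block (adjusted p = 0.0003 in edgeR). Of the 7, 2 were higher (Lyz2 and Csf1r) and 1 lower (Mrc1) with the block. Their summed level was between 14714 and 16594 CPM in control and between 23374 and 30680 CPM in NaCl, mostly from Lyz2. All 9 markers of marrow progenitors, a dividing population, were detected at a summed 37.0 to 49.1 CPM in control and 40.9 to 53.2 CPM in NaCl, with 1 higher (Cd34) and 1 lower (Mpo) with the block. Kit was at 1.38 ± 0.582 CPM unstimulated and 1.09 ± 0.136 CPM in NaCl. The ranges were 162 to 263 and 143 to 329 CPM for 6 monocyte markers (1 higher, Ifitm6), 255 to 555 and 279 to 403 CPM for 9 neutrophil markers (1 lower, Ngp), and 3.78 to 4.44 and 2.45 to 3.35 CPM for 6 dendritic cell markers. Of 5 B cell, 7 erythroid and 5 stromal markers, 2, 1 and 3 were among the genes tested, with sums of at most 10.4 CPM in any library, and of 4 T cell markers none (0). The part of other cell types in the response of the mitosis genes was not tested.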

How the data were processed

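Polyadenylated RNA of 6 BMDM libraries (3 mice, control and NaCl) was sequenced as 75-base single-end reads without strand information. The authors trimmed with fastp 0.20.0, aligned and counted with STAR 2.7.10b, and deposited a raw count table and a normalized signal, these counts divided by DESeq2 1.40.2 size factors. The methods name mm10 with GENCODE vM32, an annotation of a different build, and locations are therefore given for RefSeq promoters (GRCm38.p6) alone. Raw counts were used here, and the normalized table gave the symbols.

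The 15903 genes whose counts summed to 10 or more were fitted with edgeR 4.0.16 (TMM, glmQLFit, glmQLFTest, NaCl against control, as the study used no other term), with Benjamini-Hochberg adjustment over all of them. SEs are the log2 fold change over the square root of F. Log2 ratios within mice used log2 CPM with a prior count of 2. The labels number the mice alike in both groups. Deviations of the control and NaCl library of a mouse from their group means had correlations of 0.43, 0.15 and 0.22 for mice 1, 2 and 3. For libraries of different mice these ran from -0.35 to 0.12, the latter for control 3 with NaCl 2 and close to the value of mouse 2. The pairing thus rests on the labels, and values blocked by mouse stand beside the unblocked ones. Library totals ran from 4088065 to 20123570 counts, and precision depends on the variation between libraries as well as on depth. Alternatives were DESeq2 1.42.0, limma-voom (limma 3.58.1), other scalings and filters, thinning to 4088065 counts, and leaving out libraries or mice. Exon lengths, GC content and shared windows came from GENCODE M21, with GC content for 97.4% of genes, and the correction for both used a loess span of 0.5. Scripts were tested on simulated data.

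The members and lists were chosen with earlier results of these data known. Values in every library are given for the member with the highest mean CPM in each of 11 roles and for members past the threshold. They are also given for Mki67, Top2a, Cdk1, Ccnb1, Foxm1, Aurkb and Plk1, and for the 3 largest and 3 smallest log2 fold changes. Other members are named with summary values. Genes of other lists are named only where past the threshold, at most 4 a list, unless the list has at most 8 genes. Marker genes were named after their values were seen. Python 3.11.15 and R 4.3.3 were used.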

Additional observations from a re-analysis of the deposited data

How the results depend on the processing

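The 59 log2 fold changes stayed positive under all 21 alternatives (1239 estimates, 0 reversed), and their median stayed between 0.49 and 0.70; the number past the threshold did not stay. For the 59 genes, the other mitosis genes and the replication genes in turn, the replicate block, which pairs libraries by mouse, gave 48, 31 and 20 higher in edgeR and 41, 19 and 16 in DESeq2, against 14, 1 and 0 in edgeR without it. DESeq2 without the block gave 33 and 15 for the first 2 sets. Over all genes (76 higher and 28 lower in edgeR without the block) the replicate block gave 732 and 684 in edgeR and 452 and 354 in DESeq2, and DESeq2 without it 245 and 155.

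Total count scaling gave 9 of the 59 and 0 other mitosis genes. A minimum total count of 1 gave 33, 12 and 10 for the 3 sets and 362 higher and 300 lower over all genes, and filterByExpr gave 2 other mitosis genes. Libraries thinned to equal totals gave 1 of the 59, 0 other mitosis genes and 31 higher and 9 lower over all genes without the block, and 35, 11, 12, 274 and 182 with the replicate block. The GC and length correction, added after seeing the data, covered 15484 genes. It gave 26 and 8 for the first 2 sets and 119 and 66 over all of these genes, and with the replicate block 54, 37, 27, 1162 and 962.

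Leaving out 1 library gave 0 to 16 of the 59, 0 to 5 other mitosis genes, 0 to 3 replication genes, and 8 to 123 higher and 0 to 46 lower over all genes. Leaving out a mouse with the replicate block gave 36 to 55, 18 to 34, 15 to 20, and over all genes 469, 758 and 715 higher and 417, 661 and 585 lower without mouse 1, 2 and 3. The cause of these shifts was not tested, and some of the alternatives also remove samples or reads. Depth limits NaCl replicate 3, where 1235 of the genes tested had no count; of the 59 genes the lowest count was 37.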
